A study of Mus musculus with 9 samples.

Results

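The 40 genes described here form a list of genes known from liver sinusoidal endothelium and from vessels in general, taken by symbol from a table of 16231 genes. All 40 symbols were in the table and all 40 passed the filter on low counts. They fall into 6 roles: 9 scavenging and endocytic genes of the sinusoid, 4 secreted signals, 11 receptors of vessel ligands, 7 junction and general endothelial genes, 4 genes of continuous or activated endothelium, and 5 transcription factors. The libraries came from 3 groups of mice, 3 libraries each: young mice, aged mice, and aged mice given EGCG (epigallocatechin gallate, a green tea catechin). The series title places the study in damage to the retinal pigment epithelium, and the libraries are labelled retina. The sources used here do not give strain, sex, genotype, ages, or the dose, route and duration of EGCG. They also do not say that each library came from its own animal, so the p-values reflect spread between libraries that may be technical.

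Liver sinusoids are lined by a thin endothelium with open pores and little basement membrane, through which plasma reaches the hepatocytes. These cells are among the main scavengers of blood: through stabilins, the hyaluronan receptor LYVE1, C-type lectins and an Fc receptor they remove matrix fragments, modified proteins and immune complexes. They also secrete BMP2, which sets hepcidin in hepatocytes, and WNT2, WNT9B and R-spondin 3, which maintain the zone around the central vein. When such cells turn into ordinary capillary endothelium, a change called capillarization, they are known to lose pores and scavenger receptors and to gain markers such as CD34.

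The promoters of 4 members are shown because these members mark the main patterns below: the scavenger receptor genes Stab1 and Stab2 and the VEGF receptor gene Kdr, which were high in aged libraries, and Nrp1, which moved against the others with age. Each runs 5′ to 3′ on the gene's strand from 250 bases before to 50 bases after the RefSeq start (build GRCm38.p6). Capitals mark matches on either strand to 4 short motifs. An ETS core was searched as AGGAAG. A second form of the ETS core was searched as CGGAAG. The SOX core searched was ACAATG. The GATA core searched was AGATAA.
Stab1: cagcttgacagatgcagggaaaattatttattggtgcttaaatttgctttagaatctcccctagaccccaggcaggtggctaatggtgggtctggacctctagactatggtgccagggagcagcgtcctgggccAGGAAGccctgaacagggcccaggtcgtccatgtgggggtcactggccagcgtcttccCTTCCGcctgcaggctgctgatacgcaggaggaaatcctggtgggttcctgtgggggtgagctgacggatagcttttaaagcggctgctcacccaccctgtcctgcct
Stab2: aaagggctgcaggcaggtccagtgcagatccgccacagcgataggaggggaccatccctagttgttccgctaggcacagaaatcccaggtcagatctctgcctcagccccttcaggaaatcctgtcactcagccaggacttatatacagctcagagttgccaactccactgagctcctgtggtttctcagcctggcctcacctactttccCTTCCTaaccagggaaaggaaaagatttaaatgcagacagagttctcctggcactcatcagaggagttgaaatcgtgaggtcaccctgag
Kdr: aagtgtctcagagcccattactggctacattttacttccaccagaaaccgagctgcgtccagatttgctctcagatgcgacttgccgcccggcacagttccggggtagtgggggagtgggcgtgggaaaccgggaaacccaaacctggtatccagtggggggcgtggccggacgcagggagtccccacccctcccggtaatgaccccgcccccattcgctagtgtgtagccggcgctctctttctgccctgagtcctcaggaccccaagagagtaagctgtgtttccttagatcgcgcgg
Nrp1: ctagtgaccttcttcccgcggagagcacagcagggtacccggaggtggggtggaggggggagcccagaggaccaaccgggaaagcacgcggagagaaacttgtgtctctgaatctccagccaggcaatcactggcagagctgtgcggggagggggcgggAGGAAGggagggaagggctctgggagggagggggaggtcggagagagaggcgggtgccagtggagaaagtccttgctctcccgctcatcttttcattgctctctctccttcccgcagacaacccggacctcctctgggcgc
The windows lie at chr14:31168592-31168891 (minus strand) for Stab1, chr10:87007893-87008192 (minus) for Stab2, chr5:75978406-75978705 (minus) for Kdr and chr8:128358823-128359122 (plus) for Nrp1. The Stab1 window held 1 AGGAAG and 1 CGGAAG, the latter read here as its complement. The Stab2 and Nrp1 windows held 1 AGGAAG each, in Stab2 as the complement, and the Kdr window held none of these letters. RefSeq promoter windows were at hand for 22 of the 40 members, 26 windows in all. AGGAAG occurred in 16 of the 26 (61.5%) and in 35.4% of all 32851 windows. CGGAAG occurred in 7.69% of member windows against 16.9% of all, ACAATG in 11.5% against 12.6% and AGATAA in 7.69% against 11.2%. A letter match is a description and does not show that a factor binds there.

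The label retina was set against marker genes. Counts over all 9 libraries together were 15 for Sag (rod arrestin), 1 each for Pde6b and Cnga1 (rod phototransduction) and 4 for Best1 (retinal pigment epithelium), whereas the rod transducin gene Gnat1 stood at 29.2, 10 and 4.74 CPM in young, aged and treated libraries. Marker lists of the retinal pigment epithelium and of Müller glia summed to 4083 to 5147 and 1361 to 1456 CPM per library, nearly all of it from Ttr and Glul, which hepatocytes also express. By comparison, 12 hepatocyte markers such as Alb and Ttr summed to 128740 to 141940 CPM per library. They took 12.9%, 13.6% and 13.8% of the counts in young, aged and treated libraries. By these markers the RNA resembled liver more than retina, in conflict with the label, and the reason was not tested. Of 16 genes known from barrier capillaries of retina and brain, 12 passed the filter. With age 6 of these were higher and 4 lower, where 33.4% and 36.1% of all genes tested were. With treatment 3 were higher and 5 lower, where 31.8% and 31.5% of all genes were. Among them Mfsd2a, a lipid transporter that liver also expresses, fell from 291 to 19.4 and 12.9 CPM, while Slco1c1 had 16 counts over all 9 libraries and Slc38a5 had 2. The libraries held 34240500 to 39922044 counts each, and the biological coefficient of variation within groups was 5.37%. In each comparison a large share of all genes passed the test, and this background is given beside the members' counts. Levels in CPM are counts relative to library size after TMM scaling, and changes are log2 fold changes with standard errors (SE). The deposited FPKM matched counts over library total and a fixed length per gene, without TMM factors. Each adjusted p comes from the edgeR quasi-likelihood test, corrected by the Benjamini-Hochberg method over 12747 genes. A change was called where the adjusted p was under 0.05.

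The first comparison, aged against young libraries, asks what differs with age. Of the 40 endothelial genes, 33 rose and 1 fell, with a median change of 0.91. Of all genes tested, 69.5% were called, 33.4% as higher and 36.1% as lower, with a median of -0.01. The members' summed level was 560, 567 and 560 CPM in the young libraries and 970, 972 and 945 CPM in the aged ones. The rise spanned scavenging and endocytic genes (8 of 9), junction genes (7 of 7), vessel receptors (9 of 11) and genes of continuous or activated endothelium (4 of 4). The gene that fell was Nrp1, the neuropilin co-receptor of VEGF. In bulk RNA, fewer cells of a type and less RNA per cell cannot be told apart.

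The second comparison, EGCG-treated against untreated aged libraries, asks what differs with treatment. Of the 40 members, 31 fell and 0 rose (0 also at an unadjusted p under 0.05 and by DESeq2), with a median change of -1.15. Of all genes tested, 63.3% were called, 31.5% as lower and 31.8% as higher, with a median of 0.01. The members' summed level in the treated libraries was 450, 444 and 436 CPM, below every aged library and, on this scale, every young one. In FPKM, which is per length and without TMM factors, the sums were nearly level between young and treated libraries. The means were 141, 288 and 139 FPKM in young, aged and treated libraries. As a share of all counts, also without TMM factors, the members held 0.0515%, 0.101% and 0.0460%. Nrp1 alone held 145 to 151 CPM in young and 65.6 to 68.9 CPM in treated libraries. All 9 scavenging genes fell, as did 10 of 11 receptors and 6 of 7 junction genes, against 1 of 5 transcription factors. This comparison and the one with age share the aged libraries, so an aged library that reads high makes members higher in the first and lower in the second.

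**Figure D1:**
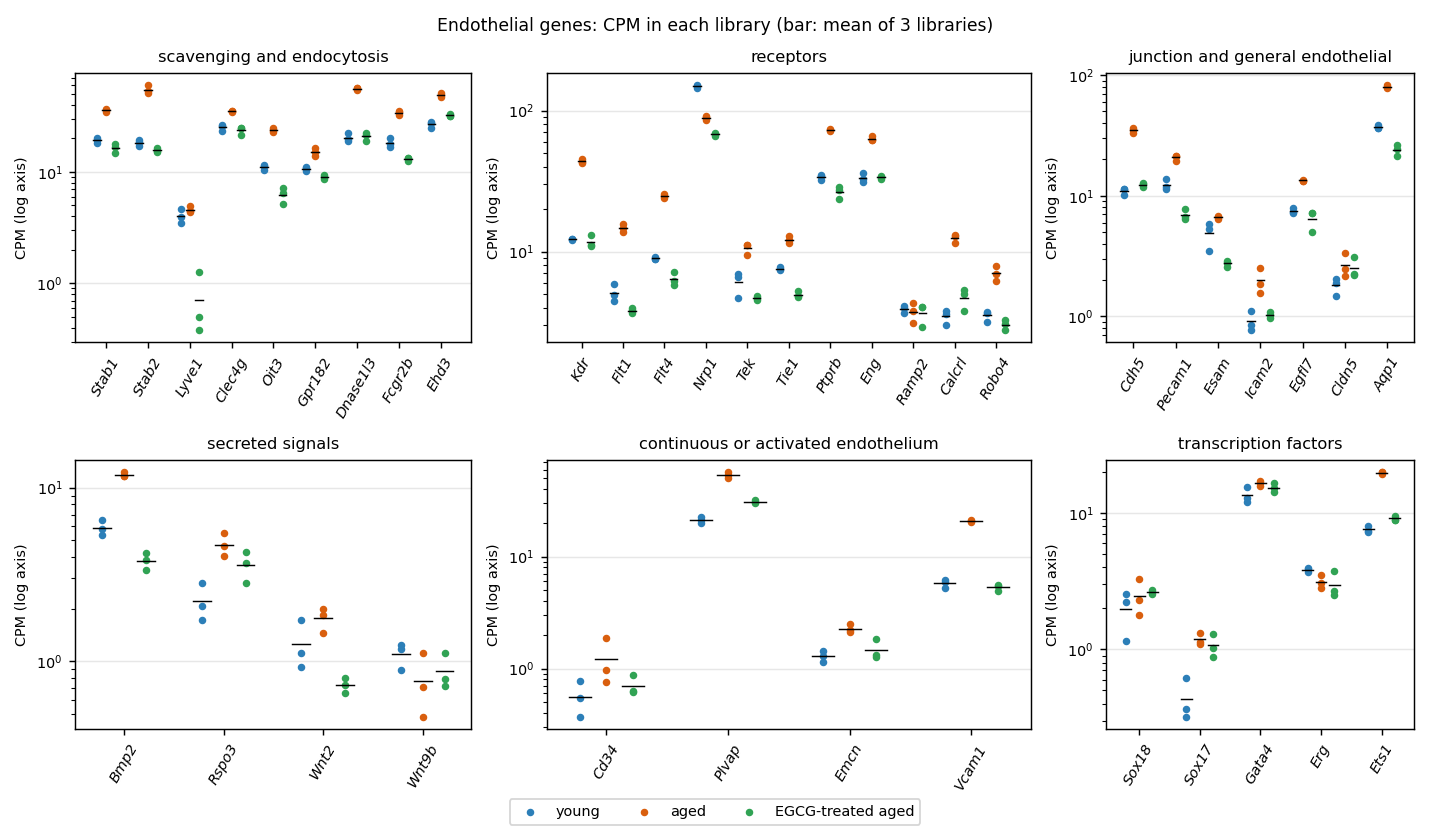
CPM (log axis) of each of the 40 endothelial genes in every library, with 3 young, 3 aged and 3 EGCG-treated aged libraries as points and group means as bars, in a panel per role. Most genes are highest in the aged libraries, while Nrp1 is highest in the young ones and Lyve1 is lowest in the treated ones.

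Scavenging and endocytosis genes were highest in the aged libraries. Stab2 (chr10:86841198-87008025 on GRCm38, minus strand), the stabilin that clears hyaluronan from blood, stood at 17.0, 19.3 and 18.6 CPM in the young libraries, 53.1, 59.5 and 51.3 CPM in the aged and 16.4, 15.3 and 15.2 CPM in the treated ones. It rose with age by 1.58 (SE 0.067, adjusted p = 3.97e-24) and fell with treatment by 1.80 (SE 0.067, adjusted p = 5.62e-26). With TMM scaling the 3 groups did not overlap, and the treated libraries lay just under the young ones. In FPKM the means were 1.70 ± 0.12 in young and 1.64 ± 0.086 in treated libraries (SD, n = 3). Stab1 (chr14:31139013-31168641, minus strand), the stabilin that also takes up acetylated lipoproteins, had 19.5, 18.1 and 20.3 CPM in young, 34.7, 36.5 and 36.2 CPM in aged and 16.8, 14.6 and 17.7 CPM in treated libraries. Its rise with age was 0.89 (adjusted p = 8.22e-15), and the aged libraries were clear of the other 2 groups. Exons of Stab1 overlap those of Nt5dc2 on the other strand, and since strand is not stated, reads of that overlap cannot be told apart.

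Dnase1l3, a secreted nuclease that breaks down chromatin, was at 18.7, 22.3 and 19.7 CPM in young, 56.2, 57.0 and 53.7 CPM in aged and 18.8, 22.4 and 21.4 CPM in treated libraries. The aged libraries lay far above the others, and the young and treated ones overlapped. Its changes were 1.46 (adjusted p = 4.76e-23) with age and -1.42 (adjusted p = 1.17e-22) with treatment. Oit3, a zona pellucida domain protein used as a marker of liver sinusoidal cells, had 10.4, 11.6 and 11.3 CPM in young, 25.0, 23.9 and 22.7 CPM in aged and 7.14, 6.46 and 5.12 CPM in treated libraries. It rose by 1.10 and fell by 1.93 (adjusted p = 8.12e-21), below the young level in every treated library. Fcgr2b, the inhibitory IgG receptor that sinusoidal cells use to remove immune complexes, had 16.7, 17.7 and 20.3 CPM in young, 34.3, 35.2 and 32.1 CPM in aged and 13.4, 13.3 and 12.6 CPM in treated libraries. Its 3 groups did not overlap either, with changes of 0.89 and -1.37.

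Lyve1 (chr7:110850607-110863239, minus strand), the hyaluronan receptor of lymphatic and sinusoidal endothelium, followed another course. It had 3.49, 4.67 and 3.97 CPM in young, 4.41, 4.90 and 4.37 CPM in aged and only 1.25, 0.380 and 0.5 CPM in treated libraries. Young and aged libraries overlapped (0.17, SE 0.22, adjusted p = 0.493). Treated libraries lay below both, by 2.67 against aged (SE 0.27, adjusted p = 9.57e-12) and 2.5 against young (adjusted p = 7.04e-11), and treated library 1 held more than 2 and 3. Within each library the FPKM ratio of Lyve1 to Stab2 was 0.778, 0.915 and 0.808 in young, 0.315, 0.312 and 0.323 in aged and 0.289, 0.0944 and 0.125 in treated libraries. That ratio thus differed between young and aged libraries without overlap, and treated libraries were lower again, though treated library 1 came close to the aged ones. Treated library 2 held only 14 counts of Lyve1, so the lowest values and ratios rest on few counts.

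The remaining scavenging genes all changed with age and with treatment. Ehd3, an endocytic recycling protein, had 27.3, 28.2 and 24.7 CPM in young, 49.0, 51.3 and 47.0 CPM in aged and 31.8, 32.8 and 32.0 CPM in treated libraries. With TMM scaling it was the 1 scavenging gene called above the young level after treatment (0.27, adjusted p = 0.000138), and with library totals Dnase1l3 was called higher too (0.22, adjusted p = 0.00587). Gpr182, an atypical chemokine receptor, had 10.8, 11 and 10.1 CPM in young, 16.4, 14.0 and 15.0 CPM in aged and 9.08, 8.71 and 9.40 CPM in treated libraries, a rise of 0.50 and a fall of 0.74. Its exons overlap those of Zbtb39 on the other strand. Clec4g (chr8:3707064-3720651, minus strand), the lectin LSECtin, was the most abundant member per length, with a mean of 22.8 FPKM over all libraries. It had 26.0, 23.2 and 26.3 CPM in young, 35.1, 34.5 and 35.0 CPM in aged and 24.9, 25.0 and 21.3 CPM in treated libraries. Its rise of 0.47 (adjusted p = 4.17e-08) and fall of 0.56 (adjusted p = 1.03e-09) were the smallest called changes with age and with treatment among the scavenging genes.

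The secreted signals of the sinusoid were low in level and less even. Bmp2, the sinusoidal signal that controls hepcidin, had 6.47, 5.32 and 5.81 CPM in young, 11.7, 11.6 and 12.3 CPM in aged and 4.20, 3.34 and 3.84 CPM in treated libraries. Its groups did not overlap, and it changed by 1.02 with age and -1.64 with treatment (adjusted p = 3.89e-15). Rspo3, which sustains Wnt signalling around the central vein, had 1.73, 2.84 and 2.09 CPM in young, 5.45, 4.60 and 4.04 CPM in aged and 2.81, 4.29 and 3.70 CPM in treated libraries. It rose with age (1.08, adjusted p = 1.39e-05), and its -0.38 with treatment did not pass (adjusted p = 0.0832), with overlapping groups. Without treated library 2 that value was -0.53 and passed (adjusted p = 0.0383).

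Wnt2, the Wnt ligand of pericentral endothelium, had 0.929, 1.73 and 1.12 CPM in young, 1.86, 2 and 1.45 CPM in aged and 0.654, 0.733 and 0.806 CPM in treated libraries. It fell with treatment (-1.27, adjusted p = 0.00111), and its value with age, 0.48, missed the threshold (adjusted p = 0.178) but passed on log2(FPKM + 1) (0.27, adjusted p = 0.0101) and log2(FPKM + 0.1) (0.62, adjusted p = 0.0152). Wnt9b, also a pericentral Wnt ligand and the least abundant member per length (0.159 FPKM), ranged over 0.480 to 1.24 CPM in the 9 libraries and was not called in any comparison.

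Receptors of vessel ligands held the largest rise with age among the members. Kdr (chr5:75932827-75978458, minus strand), the main signalling receptor of VEGF-A, had 12.3, 12.1 and 12.2 CPM in young, 43.0, 42.5 and 45.4 CPM in aged and 13.2, 11.1 and 10.9 CPM in treated libraries. It was 3.58-fold higher in aged than in young libraries (1.84, SE 0.074, adjusted p = 7.81e-25) and 3.72-fold lower in treated than in aged ones (-1.90, adjusted p = 3.05e-25). Young and treated libraries overlapped. Flt1, the VEGF receptor known as a decoy, had 4.42, 4.91 and 5.88 CPM in young, 13.8, 15.7 and 14.7 CPM in aged and 3.84, 3.96 and 3.64 CPM in treated libraries. Flt4, the receptor of VEGF-C, had 8.88, 9.21 and 8.87 CPM in young, 23.9, 25.6 and 25.0 CPM in aged and 7.17, 5.78 and 6.23 CPM in treated libraries. Both were thus high in the aged libraries alone, with changes of 1.54 and 1.47 with age and -1.95 and -1.96 with treatment.

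Nrp1 (chr8:128358604-128503363, plus strand), the neuropilin co-receptor, went the other way with age. It had 151, 149 and 145 CPM in young, 90.1, 91.7 and 85.2 CPM in aged and 68.9, 68.6 and 65.6 CPM in treated libraries. It fell by 0.74 with age (SE 0.038, adjusted p = 3.49e-21) and was lower again by 0.39 in treated than in aged libraries (adjusted p = 7.44e-12). The 3 groups did not overlap. Within a library the FPKM ratio of Kdr to Nrp1 was 0.101, 0.101 and 0.104 in young, 0.591, 0.574 and 0.660 in aged and 0.237, 0.200 and 0.206 in treated libraries. Neuropilin 1 is also known from cells other than endothelium, and the cell type that held its transcript was not tested.

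The TIE and angiopoietin receptors moved with the VEGF receptors. Tie1 had 7.37, 7.73 and 7.57 CPM in young, 11.5, 12.1 and 12.9 CPM in aged and 4.85, 5.21 and 4.75 CPM in treated libraries, without overlap. Tek, which encodes the angiopoietin receptor TIE2, rose by 0.81 and fell by 1.18. Ptprb, the phosphatase VE-PTP that restrains TIE2, had 34.6, 34.7 and 32.4 CPM in young, 73.5, 72.1 and 73.1 CPM in aged and 23.4, 27.2 and 28.7 CPM in treated libraries, with changes of 1.10 and -1.46. All 3 were thus highest in the aged libraries and, with TMM scaling, were called lower in treated than in young ones.

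Eng, endoglin, a co-receptor of BMP9, had 32.9, 35.9 and 30.9 CPM in young, 66.4, 62.0 and 61.6 CPM in aged and 33.8, 34.4 and 32.6 CPM in treated libraries, and young and treated libraries overlapped. Its changes were 0.93 with age and -0.92 with treatment. Calcrl, whose product binds adrenomedullin when joined to RAMP2, had 3.81, 3.03 and 3.60 CPM in young, 13.2, 13.0 and 11.6 CPM in aged and 5.32, 5.02 and 3.81 CPM in treated libraries. It showed the largest rise of the 40 with age (1.85, adjusted p = 7.71e-16) and fell by 1.41 with treatment. Its partner Ramp2 ranged over 2.89 to 4.29 CPM in the 9 libraries, with -0.08 with age (adjusted p = 0.718) and -0.02 with treatment (adjusted p = 0.937), and these signs turned under other scaling. Exons of Eng overlap Fpgs, and those of Ramp2 overlap Vps25. Robo4, a guidance receptor of endothelium, rose by 0.99 and fell by 1.21.

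**Figure D2:**
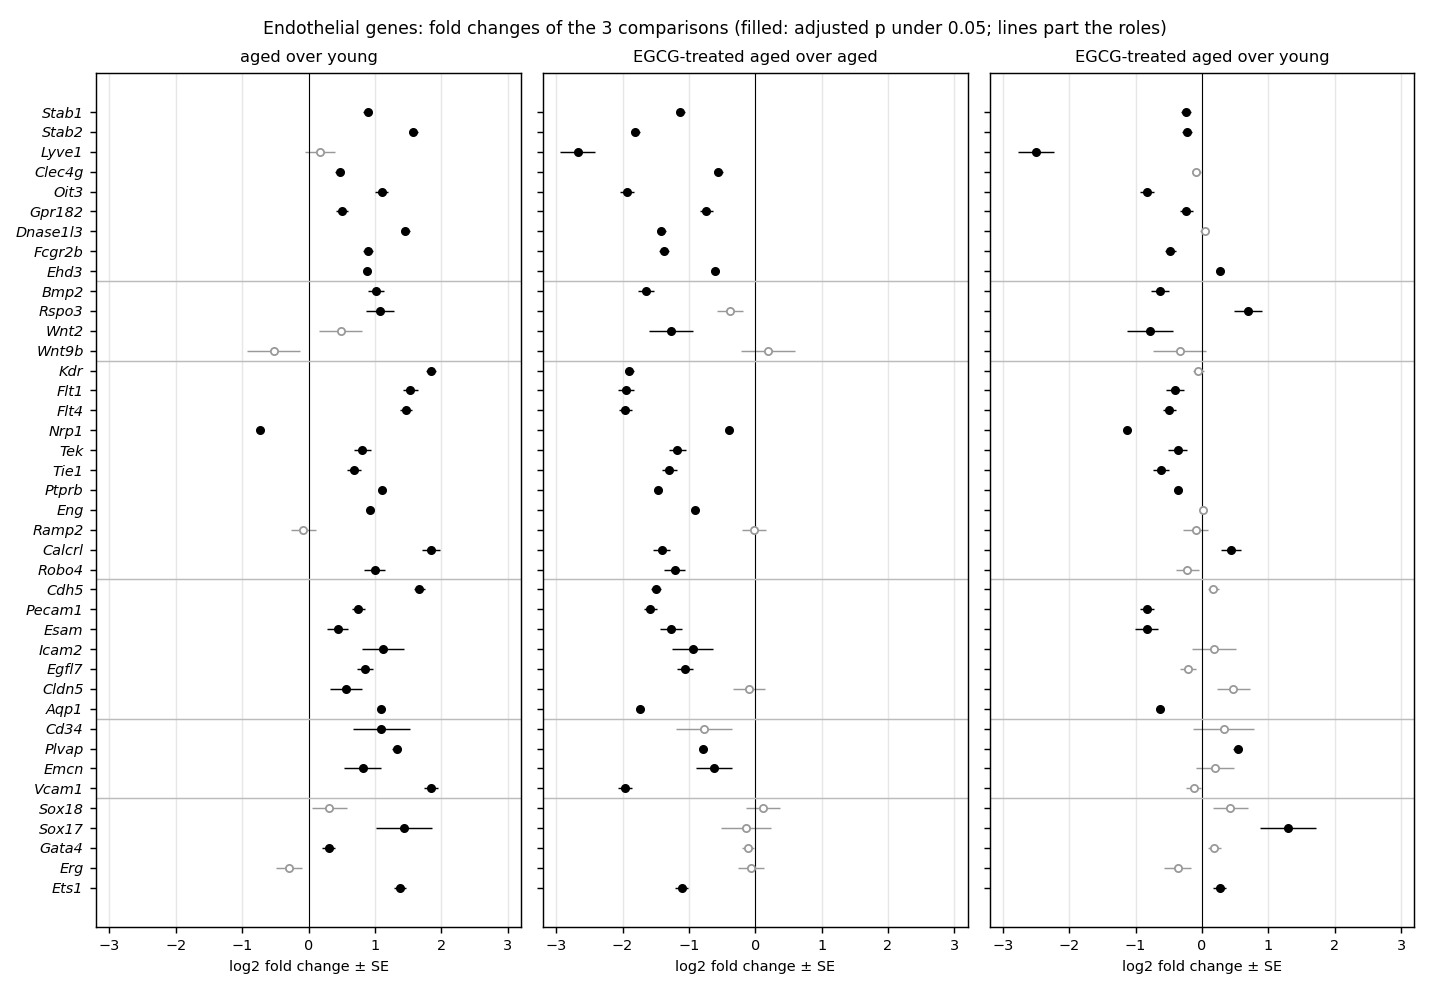
Log2 fold changes of the 40 endothelial genes with their standard errors, for the 3 comparisons, ordered by role, with filled points for called genes. Values lie mostly above 0 in the first comparison and below 0 in the second, and on both sides of 0 in the third, from -2.5 for Lyve1 to 1.29 for Sox17.

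Junction and general endothelial genes all rose with age. Cdh5, VE-cadherin, had 11.5, 10.1 and 11.4 CPM in young, 33.0, 36.6 and 35.3 CPM in aged and 12.8, 12.5 and 11.9 CPM in treated libraries. It rose by 1.67 (adjusted p = 1.63e-22) and fell by 1.5 (adjusted p = 4.47e-21). Pecam1, the adhesion molecule CD31, had 13.9, 11.5 and 11.7 CPM in young, 19.6, 21.4 and 21.4 CPM in aged and 6.65, 6.43 and 7.78 CPM in treated libraries. With TMM scaling, the treated libraries lay below every young library for Pecam1, but above every young library for Cdh5. Against young libraries Pecam1 was called (-0.83, adjusted p = 2.43e-09, edgeR), whereas Cdh5 was not (0.17, adjusted p = 0.0737).

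Aqp1, the water channel of endothelium that cholangiocytes also express, had 36.8, 36.3 and 38.9 CPM in young, 82.2, 79.3 and 77.9 CPM in aged and 26.1, 21.4 and 24.4 CPM in treated libraries. Its fall of 1.73 had the smallest adjusted p of the members in that comparison (5.35e-28, edgeR). Cholangiocyte markers summed to a mean of 47.6, 62.8 and 72.2 CPM in young, aged and treated libraries, and the part of these cells in the values of Aqp1 was not tested. Esam, an adhesion molecule of tight junctions, had 3.49, 5.35 and 5.81 CPM in young, 6.45, 6.65 and 6.79 CPM in aged and 2.59, 2.79 and 2.86 CPM in treated libraries. Its rise of 0.44 (adjusted p = 0.0149) rested on young library 1, without which it was 0.25 (adjusted p = 0.18).

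Egfl7, a matrix protein secreted by endothelium whose exons overlap Agpat2 on the other strand, rose by 0.85 and fell by 1.06. Icam2, a leukocyte adhesion ligand, rose by 1.12 and fell by 0.95, and the fall was lost without aged library 3 (-0.73, adjusted p = 0.0854). Cldn5, the claudin of tight endothelium, rose by 0.57 (adjusted p = 0.0386) and was not called with treatment (-0.09, adjusted p = 0.749). The rise of Cldn5 was lost without young library 1 (0.60, adjusted p = 0.0542), young library 3 (0.44, adjusted p = 0.149) or aged library 1 (0.37, adjusted p = 0.239).

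Genes of continuous or activated endothelium rose at least as much as the scavenging genes by median, 1.21 against 0.89, a difference that was not tested. Plvap (chr8:71497765-71511752, minus strand), which forms the diaphragms of endothelial pores and caveolae, had 22.6, 20.1 and 21.3 CPM in young, 57.0, 53.3 and 50.1 CPM in aged and 32.0, 30.6 and 30.3 CPM in treated libraries. It rose by 1.33, fell by 0.79 and stayed above the young level in every treated library (0.54, adjusted p = 6.7e-10). Vcam1, an adhesion molecule of activated endothelium that other liver cells can also express, had 5.29, 5.97 and 6.21 CPM in young, 21.0, 20.3 and 21.4 CPM in aged and 5.51, 5.62 and 4.92 CPM in treated libraries. Aged libraries were far above both other groups, which overlapped.

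Emcn, endomucin, had 1.15, 1.42 and 1.30 CPM in young, 2.12, 2.5 and 2.21 CPM in aged and 1.83, 1.33 and 1.28 CPM in treated libraries. Its rise was 0.81 (adjusted p = 0.00827). Its fall of 0.62 (adjusted p = 0.0406) was lost with upper-quartile factors (adjusted p = 0.0628), without the filter on low counts (adjusted p = 0.0503) and without aged library 1, 2 or 3 or treated library 2 or 3 (adjusted p = 0.0568, 0.128, 0.0755, 0.121 and 0.134). Cd34, the marker known from capillarization, ranged over 0.371 to 0.769 CPM in young, 0.758 to 1.88 CPM in aged and 0.612 to 0.868 CPM in treated libraries. Its rise of 1.10 (adjusted p = 0.0239) came with overlapping groups and was lost without young library 2 (0.87, adjusted p = 0.102), young library 3 (1.07, adjusted p = 0.0534) or aged library 1 (0.62, adjusted p = 0.286).

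Per length, the scavenging genes kept their share of the members' summed FPKM. That of the genes of continuous or activated endothelium, mostly Plvap, was higher in aged and treated libraries. Scavenging genes held 39.4 ± 0.56% (SD, n = 3) in young, 38.8 ± 0.42% in aged and 39.6 ± 0.70% in treated libraries. Genes of continuous or activated endothelium held 8.38 ± 0.38%, 12.2 ± 0.39% and 13.0 ± 0.21%. Plvap alone held 9.22, 26.5 and 15.1 of this role's 11.8, 35.1 and 18.1 FPKM by group mean. With TMM scaling, Plvap was the only gene of this role called between treated and young libraries. Receptors held 26.3%, 21.3% and 22.4%, and junction genes 19.0%, 21.6% and 16.3%. The receptor share includes Nrp1, with 13.97, 9.64 and 7.23 FPKM by group mean in young, aged and treated libraries. The receptors' sum rose from 36.99 FPKM in young to 61.2 FPKM in aged libraries. Their lower share with age thus does not show a fall of receptors other than Nrp1. The FPKM ratio of Plvap to Stab2 was 6.20, 4.85 and 5.33 in young, 5, 4.17 and 4.56 in aged and 9.08, 9.34 and 9.28 in treated libraries, so young and aged libraries overlapped and treated ones lay above both. The ratio of Plvap to Cdh5 was 3.75, 3.78 and 3.56 in young, 3.28, 2.78 and 2.71 in aged and 4.76, 4.67 and 4.86 in treated libraries. Against Cdh5, Plvap was thus lower in aged than in young libraries, without overlap, and highest in treated ones. The ratio of Stab2 to Stab1 was 0.717, 0.875 and 0.754 in young, 1.26, 1.34 and 1.16 in aged and 0.804, 0.857 and 0.705 in treated libraries, highest in the aged ones. Shares and ratios were described and not tested.

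**Figure D3:**
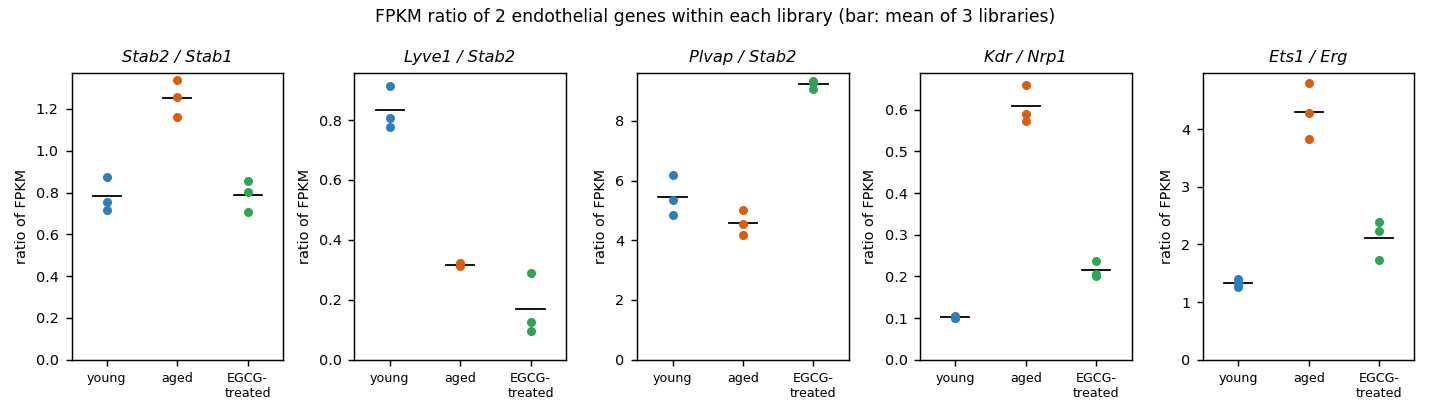
FPKM ratios between pairs of endothelial genes within each library, with the 3 libraries of each group as points. The Lyve1 to Stab2 ratio is lower in aged and treated than in young libraries, the Kdr to Nrp1 ratio is highest in aged ones, and the Plvap to Stab2 ratio is highest in treated ones.

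Transcription factors of endothelium had the smallest median changes of the 6 roles with age (0.31) and with treatment (-0.11). Ets1 (chr9:32636221-32757820, plus strand), an ETS factor, had 7.24, 7.39 and 8.06 CPM in young, 19.9, 19.9 and 19.3 CPM in aged and 8.89, 9.55 and 8.90 CPM in treated libraries. It rose by 1.38 (adjusted p = 8.5e-17) and fell by 1.11 (adjusted p = 3.98e-14), without overlap between the groups. Erg, an ETS factor that maintains endothelial identity, had 3.69, 3.96 and 3.88 CPM in young, 3.51, 2.80 and 3.04 CPM in aged and 2.51, 3.72 and 2.70 CPM in treated libraries. With TMM scaling, all aged libraries were below all young ones, yet the change of -0.30 did not pass (adjusted p = 0.171). In FPKM the means were 0.964 ± 0.039 in young and 0.899 ± 0.10 in aged libraries (SD, n = 3). The Ets1 to Erg ratio in FPKM went from 1.33, 1.26 and 1.40 in young to 3.83, 4.79 and 4.28 in aged and 2.39, 1.73 and 2.23 in treated libraries.

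Gata4, the factor that specifies sinusoidal endothelium and that stellate cells also express, had 15.3, 12 and 12.9 CPM in young, 16.7, 15.7 and 17.2 CPM in aged and 15.1, 16.6 and 14.1 CPM in treated libraries. It rose with age by 0.30 (adjusted p = 0.00396), and its -0.11 with treatment did not pass. Sox17, a SOX factor of arterial and sinusoidal cells, had 0.320, 0.618 and 0.363 CPM in young, 1.32, 1.09 and 1.14 CPM in aged and 0.872, 1.30 and 1.03 CPM in treated libraries. It rose with age (1.43, adjusted p = 0.00256), and aged and treated libraries overlapped. Sox18, its relative, ranged over 1.15 to 3.28 CPM in the 9 libraries and with TMM scaling was not called in any comparison.

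Treated aged libraries were also compared with young ones, which shows how far the members lay from the young level. Of the members, 6 lay higher and 17 lower (median -0.22), where 62.9% of all genes were called, 30.8% as higher and 32.1% as lower (median 0.02). The lower members were Stab1, Stab2, Lyve1, Oit3, Gpr182, Fcgr2b, Bmp2, Wnt2, Flt1, Flt4, Nrp1, Tek, Tie1, Ptprb, Pecam1, Esam and Aqp1. Among them were Nrp1 (-1.13), Oit3, Pecam1 and Esam (each -0.83) and Aqp1 (-0.64). The higher members were Ehd3, Rspo3 (0.69), Calcrl (0.44), Plvap, Sox17 (1.29) and Ets1 (0.27).

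This count depended on the scaling: 12 members were higher and 11 lower with upper-quartile factors or with library totals alone. The young libraries had TMM factors of 0.911 to 0.920 and the others 1.027 to 1.055. The higher share among all calls was 49.0% with TMM factors, 65.6% with upper-quartile factors and 66.8% with library totals, and the median of all genes moved from 0.02 to 0.18 and 0.20. Against young libraries, 10 of the 17 lower and 4 of the 6 higher calls were kept under all 17 alternatives run. With library totals Stab1 was at -0.058 and Stab2 at -0.049, neither called, and Flt1, Gpr182, Tek and Wnt2 lost their calls as well, as Ptprb did in FPKM. Stab1 also lost its call without treated library 2 (-0.16, adjusted p = 0.078), and Flt1 without young library 3 (-0.29, adjusted p = 0.0801). Tek lost its call without young library 2 (-0.31), young library 3 (-0.27) or treated library 2 (-0.35). Gpr182 lost its call without young library 1 (-0.22) or 2 (-0.21) or treated library 1 (-0.24) or 2 (-0.21), and Wnt2 without any library other than young 1 or 3 (-0.86 to -0.49). With library totals 6 members became called higher: Dnase1l3 (0.22), Eng (0.19, adjusted p = 0.00344), Cdh5 (0.35, adjusted p = 0.000361), Cldn5 (0.65, adjusted p = 0.0193), Sox18 (0.60, adjusted p = 0.0394) and Gata4 (0.37, adjusted p = 0.00067). Upper-quartile factors gave the same 6 calls. Calcrl lost its call without young library 2 (0.35, adjusted p = 0.0602) or treated library 1 (0.34, adjusted p = 0.0644). Ets1 did so without young library 1 (0.24, adjusted p = 0.0615), young library 2 (0.25, adjusted p = 0.051) or treated library 2 (0.23, adjusted p = 0.072). Gata4 gained a call without young library 1 (0.29, adjusted p = 0.0109) or treated library 3 (0.24, adjusted p = 0.0383), as did Erg without treated library 2 (-0.56, adjusted p = 0.0273).

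For age, the higher share of all calls was 48.1% with TMM factors, 57.9% with upper-quartile factors and 67.3% with library totals, and the median of all genes moved from -0.01 to 0.09 and 0.18. The members' median moved with it, to 1.02 and 1.11. Of the calls, 30 of the 33 rises with age and 29 of the 31 falls with treatment were kept under all 17 alternatives, and the others (Cd34, Cldn5 and Esam with age, Emcn and Icam2 with treatment) are given above.

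The ligands of these receptors were followed in a list of 15 VEGF, angiopoietin, adrenomedullin and BMP9-type genes, of which 12 passed the filter. With age 9 rose and 1 fell, and with treatment 7 fell and 1 rose. Beside this list and those below, 33.4% of all genes tested rose and 36.1% fell with age. With treatment 31.8% of all genes rose and 31.5% fell. Adm, adrenomedullin, the ligand of the CALCRL and RAMP2 receptor, rose from 0.888 ± 0.15 to 4.07 ± 0.40 CPM (SD, n = 3) and was at 0.849 ± 0.21 CPM in treated libraries. Gdf2, which encodes BMP9, a ligand of the receptor complex with endoglin, went from 7.70 ± 0.047 to 16.8 ± 0.90 and back to 7.90 ± 1.2 CPM. Vegfa, the ligand of KDR and FLT1, rose from 113 ± 4.0 to 152 ± 4.1 CPM and was at 130 ± 4.7 CPM with treatment, between the other 2 groups. Angptl4, a lipase inhibitor of the angiopoietin-like family, fell with age from 174 ± 2.7 to 139 ± 3.1 CPM and with treatment to 27.4 ± 0.72 CPM.

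Genes of Notch, BMP and flow signalling were taken as a list of 20. With age 16 rose and 1 fell, and with treatment 14 fell and 3 rose. Notch1, the Notch receptor of endothelium and many other cells, rose from 7.69 ± 1.0 to 32.1 ± 0.25 CPM and fell to 22.7 ± 2.5 CPM. Thbd, thrombomodulin, rose from 4.20 ± 0.13 to 5.75 ± 0.65 CPM and fell to 1.42 ± 0.20 CPM. S1pr1, the sphingosine 1-phosphate receptor that stabilizes vessels, rose with age and again with treatment, from 22.5 ± 2.1 to 45.1 ± 2.5 and 79.3 ± 1.7 CPM. Id3, a target of BMP signalling in many cell types, fell with age from 46.9 ± 3.5 to 34.8 ± 2.5 CPM and rose with treatment to 66.7 ± 1.0 CPM. The third gene that rose with treatment was Smad6, an inhibitor of BMP signalling, at 1.88, 6.87 and 8.89 CPM by group mean.

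Of 39 other endothelial genes tested, 30 rose and 1 fell with age, and 31 fell and 2 rose with treatment. Mrc1, the mannose receptor of sinusoidal endothelium and of macrophages, rose from 15.2 ± 0.35 to 55.1 ± 0.34 CPM and fell to 14.0 ± 1.4 CPM. Thbs1, the matrix protein thrombospondin 1, rose from 1.04 ± 0.38 to 21.8 ± 0.82 CPM and fell to 1.28 ± 0.11 CPM. Maf, a transcription factor known from sinusoidal cells, rose from 11.2 ± 0.053 to 33.8 ± 0.25 CPM and fell to 12.8 ± 0.56 CPM. The 2 genes that rose with treatment were Cd36, a fatty acid transporter that hepatocytes also express, and Nr2f2, a factor of venous endothelium, whose group means were 23.9, 41.0 and 57.5 CPM and 15.5, 27.6 and 32.3 CPM in young, aged and treated libraries.

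Markers of other cells of the liver also differed between the groups. All 12 markers of Kupffer cells and macrophages rose with age and fell with treatment, with summed levels of 140 to 142 CPM in young, 775 to 792 CPM in aged and 295 to 304 CPM in treated libraries. Clec4f, a marker of Kupffer cells, was at 24.0, 77.2 and 41.4 CPM by group mean. Of 12 stellate cell markers, 11 rose with age and 10 fell with treatment, with sums of 120 to 134, 445 to 453 and 184 to 193 CPM. Of 9 mural cell markers tested, 8 rose with age and 5 fell with treatment, with sums of 106 to 113, 179 to 187 and 129 to 130 CPM. Of 12 hepatocyte markers, 11 fell and 1 rose with age under TMM scaling, but 6 fell and 4 rose with library totals, and with treatment 6 rose and 5 fell. Lymphocyte markers, low in level, rose in 9 of 9 with age, with mean sums of 1.72, 6.57 and 7.24 CPM in young, aged and treated libraries. With treatment 2 of the 9 rose and 0 fell by edgeR (1 fell at an unadjusted p under 0.05, and 1 by DESeq2). Of all genes, 31.8% rose and 31.5% fell with treatment. None of the Kupffer, stellate or mural markers was at 0 in all libraries, some members (Stab1, Lyve1, Fcgr2b) are also known from macrophages, and the part of these cells in the members' changes was not tested.

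**Figure D4:**
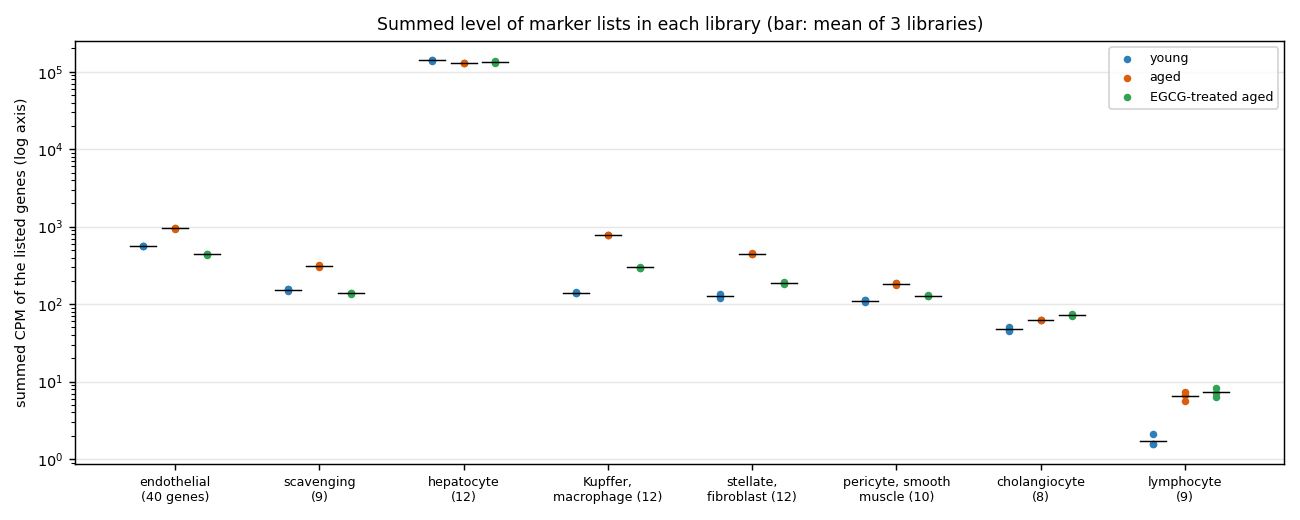
Summed CPM of all 40 endothelial genes, of the 9 scavenging genes among them and of markers of other cell types in each library, with 3 libraries per group as points. Endothelial members peak in the aged libraries at 945 to 972 CPM, and Kupffer markers peak there too at 775 to 792 CPM.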

How the data were processed

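RNA of 9 mouse libraries was purified with a column kit and prepared with an mRNA-seq kit, per the labels' protocols. Per the file headers, the authors deposited 2 tables of 16231 gene symbols, with raw counts and with FPKM. Every column was matched to a library by its name. The submitters' processing notes name GRCm38 and mm10, while aligner, counter, annotation and strand were not given in the sources used here. Tests ran on the deposited counts in R 4.3.3 with edgeR 4.0.16 (TMM, a filterByExpr minimum count of 10, glmQLFit and glmQLFTest, 1 coefficient per group over all 9 libraries). Calls used a Benjamini-Hochberg adjusted p under 0.05 over 12747 genes. FPKM served for levels per length, ratios and alternatives with limma 3.58.1 and pseudocounts of 1 and 0.1. Other alternatives were DESeq2 1.42.0, upper-quartile factors, library totals, no filter, only the 6 libraries compared, a replicate block, and each library left out in turn. The fit was checked on simulated counts in which few genes changed, so the check does not bear on scaling in these libraries.

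Members and lists were chosen with earlier results of these data known. Library values are given for the 3 members of each role with the highest mean CPM, members called against their role, those with the largest change per role and comparison, and those without overlap in all 3 comparisons. Those of Kdr and Clec4g were added after their values were seen. Of other lists, up to 4 genes per comparison with the smallest p were eligible, and marker genes named only by a level or count were added. Coordinates are from GENCODE M21 (GRCm38). Replicates of a group differed by more than counting noise (chi-square of 3.79 to 4.78 per degree of freedom).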

Additional observations from a re-analysis of the deposited data

How the results depend on the processing

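Other scalings left the counts with age and with treatment of aged mice nearly as they were: 33 or 34 members rose with age and 30 or 31 fell with treatment, or 31 to 33 and 29 to 31 with a library left out. Against young libraries, higher and lower members numbered 12 and 11 with upper-quartile factors, 12 and 11 with library totals, and 11 and 10 on log2(FPKM + 1) and on log2(FPKM + 0.1), and 4 to 7 and 14 to 16 with a library left out. The cause was not tested beyond the shift of all genes given with these counts.

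Some members that were not called changed sign. With upper-quartile factors, library totals, log2(FPKM + 1) and log2(FPKM + 0.1), in that order, Ramp2 was at 0.029, 0.12, 0.093 and 0.11 with age. In the same order, treated against young libraries gave 0.068, 0.083, 0.056 and 0.065 for Ramp2, 0.080, 0.095, 0.088 and 0.092 for Clec4g, 0.11, 0.13, 0.072 and 0.11 for Kdr, and 0.042, 0.057, 0.036 and 0.055 for Vcam1. Ramp2 with treatment was at 0.039 with upper-quartile factors. With a library left out, Ramp2 ranged over -0.19 to 0.036 with age, -0.13 to 0.13 with treatment and -0.18 to 0.047 against young libraries. With treatment, Wnt9b ranged over -0.053 to 0.55, Cldn5 over -0.27 to 0.10, Sox18 over -0.073 to 0.38 and Erg over -0.26 to 0.044. Against young libraries, Dnase1l3 ranged over -0.013 to 0.12 and Eng over -0.038 to 0.072. Under other scalings both were higher and called: Dnase1l3 at 0.21, 0.22, 0.18 and 0.22 and Eng at 0.18, 0.19, 0.18 and 0.19, in the order above. The cause was not tested.

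Libraries of different groups with the same number did not deviate together (correlations of -0.039 to 0.022, best match with the own number in 3 of 18 cases), so the numbers were not taken as pairs. With the number as a replicate block, 8749, 7957 and 7907 genes were called with age, with treatment and against young libraries, and 8857, 8064 and 8014 without it. With the block, 32 members rose with age, 30 fell with treatment, and 6 were higher and 16 lower against young libraries. The calls lost with the block were those of Cldn5 with age (adjusted p = 0.0523), Emcn with treatment (adjusted p = 0.0522) and Wnt2 against young libraries (adjusted p = 0.0667), all by edgeR. Cd34, Sox17 and Wnt9b rest on few counts, with 12, 10 and 19 in their lowest libraries. Lyve1 does so in treated libraries, with 14 counts in treated library 2. At 3 counts, the detection floor was 0.0751 to 0.0876 CPM per library. This floor covers counting error only.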
